A study of Drosophila melanogaster with 8 samples.

Results

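Cytoplasmic ribosomal protein and translation factor genes were followed in heads of unmated male Drosophila melanogaster on 2-colour cDNA arrays. Members were all genes named by a table row whose current symbol begins with RpL or RpS and a digit, or with eIF or eEF. The rule found 50 of the 6793 named genes: 12 large subunit genes, 8 small subunit genes, 26 initiation factors and 4 elongation factors. The rule reads gene symbols and uses no ratio. The RefSeq table holds 140 genes whose symbol meets the rule, and the 90 that no single-gene row names are not analysed here.

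Flies of the wild-type strain Oregon-R, aged 3 to 4 days, ate pentylenetetrazole food for 7 days and then sodium valproate food for 3 days. Pentylenetetrazole (PTZ) is a convulsant that acts against GABA-A receptors. Valproate (NaVP) is given against epilepsy and is also a histone deacetylase inhibitor. The day 14 group (PTZ-NaVP-NF) returned to normal food for 4 more days before heads were collected, and the day 10 group (PTZ-NaVP) was collected at the end of valproate. Each array set pooled head RNA of treated flies against pooled head RNA of parallel controls that stayed on normal food throughout, with 4 arrays a group, called biological replicates in the series text. The control flies had neither drug, and no array analysed here carries flies given a single drug, so effects of PTZ and valproate cannot be told apart. The sample labels give 8 mg/ml PTZ and 0.33 mg/ml valproate and the series text 0.33 and 24 mg/ml, which leaves both doses unsettled.

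Ribosomes are built of a small subunit, which reads the messenger RNA, and a large subunit, which joins amino acids. Every cell needs them, and their protein genes are usually expressed together in near equal amounts. Initiation factors bring initiator tRNA, messenger RNA and the small subunit together, and much control over protein synthesis acts there, through TOR signalling to the cap-binding factors and through phosphorylation of eIF2. Elongation factors then deliver each aminoacyl-tRNA.

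Values below are log2 ratios of treated over control RNA after each array was centred on its median. They are ratios within an array, so they say nothing of how abundant a gene's RNA is. Errors after a fitted value are standard errors of a limma fit over all 8 arrays with a term for the dye, and n is the number of arrays. In 2 arrays of each group (replicates 3 and 4) treated RNA carried Cy3 in place of Cy5, and their sign was turned. Print-block medians of arrays with opposite dye orientation correlated at 0.28 to 0.84 in all 16 pairs, so the deposited ratios were taken as not yet turned. Kept as deposited, the swapped arrays changed the sign of 52 of the 112 fitted values of members. The deposited value was read as Cy5 over Cy3, which is likely from the labels but not stated; with the opposite reading every sign below turns. Arrays held values for 11208 to 14421 spots at day 14 and for 13524 to 19905 at day 10, out of 27648. Of head cell type markers, 3 neuronal, 8 glial and 8 photoreceptor genes had a value on at least 1 array, while elav, repo and ninaE were not analysed here, so the labelled tissue was checked only in part. In whole-head RNA, fewer cells of a type and less RNA per cell cannot be told apart.

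No member passed at either collection. At day 14, 37 of the 50 members had values on at least 3 arrays, the minimum for a test, and limma called 0 of them at an adjusted p of 0.05 (adjusted p = 0.999 for all), against 0% of 7529 features tested. At an unadjusted p under 0.05 there were 0 members, against 3.98% of features (2.56% lower and 1.42% higher). At day 10, 42 members were tested and 0 called (adjusted p = 0.727 to 0.986 with limma), against 0% of 11509 features. There 3 members had an unadjusted p under 0.05, eIF2A and RpL7-like below 0 and eIF2Bdelta above it, which is 7.14% of those tested against 6.67% of all features (2.94% lower and 3.74% higher). The 95% intervals of the fit lay within a log2 ratio of 1 either way, a 2-fold change, for all 37 members at day 14. At day 10 they did so for 40 of 42, and the other 2 were eIF2A and eIF3d2. These intervals use a spread per gene that both collections share. Deposited values spread more at day 10, with an SD of 0.52 to 0.86 by array, than at day 14, with 0.33 to 0.43. The day 10 intervals can thus be too narrow and the day 14 intervals too wide.

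Large subunit genes lay slightly below 0 as a class at day 14 and near 0 at day 10, with neither beyond the spread between arrays. At day 14 all 12 were tested, 8 of them below 0, with a median of -0.06 and a range of -0.30 to 0.13, beside a median of 0.00 and 50.7% below 0 over all features. On the 4 arrays the class median was -0.14, 0.15, -0.18 and -0.15. Replicate 2 thus stood above 0 and the other arrays below it. At day 10, 10 were tested, 3 of them below 0, with a median of 0.04 (-0.03 without centring), beside 0.04 and 43.5% below 0 over all features. The class medians there were 0.12, 0.17, -0.26 and -0.12, above 0 on both arrays with treated RNA in Cy5 and below 0 on both with treated RNA in Cy3. Leaving out any single array gave medians of -0.12 to -0.05 at day 14 and 0.04 to 0.14 at day 10.

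RpL23, a protein of the face where the subunits meet, had the smallest p of the class at day 14. Its ratios were -0.57, -0.36, -0.12 and -0.14 on the 4 arrays, and the fitted value was -0.30 ± 0.14 (n = 4). All day 14 arrays lay below 0, which among all features was so for 9.62%, and RpL23 and eIF3l were the 2 of 37 members of which this held. At day 10 its ratios were -0.29, 0.15, 0.09 and 0.75, a fitted 0.17 ± 0.15 (n = 4), so the arrays fell on both sides of 0. RpL15 followed at day 14 with -0.38, 0.17, -0.55 and -0.46, a fitted -0.30 ± 0.16 (n = 4). Replicate 2 was the array above 0. At day 10 RpL15 had 0.12, 0.45, -0.84 and -0.16, fitted at -0.11 ± 0.17 (n = 4).

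RpL27 had -0.48, 0.09, -0.35 and -0.25 at day 14, a fitted -0.25 ± 0.16 (n = 4), again with replicate 2 alone above 0. RpL27 arrays at day 10 stood at 0.51, 0.48, -0.46 and 0.18, fitted at 0.18 ± 0.17 (n = 4). RpL3, which lies close to the site of peptide bond formation, had 0.21, 0.45, -0.73 and -0.46 at day 14. Its arrays split by dye orientation, and the fitted value was -0.13 ± 0.13 (n = 4). At day 10 RpL3 had 0.16 and -0.60 on 2 arrays and was not tested.

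RpL17 and RpL39 line the tunnel through which the new protein leaves. RpL17 was fitted at -0.04 ± 0.13 at day 14 and at 0.19 ± 0.13 at day 10 (n = 4 each). Its day 10 arrays read 0.70, 0.59, -0.19 and -0.33, another split by dye. RpL39 was at -0.05 ± 0.12 at day 14 and 0.19 ± 0.12 at day 10 (n = 4 each), with day 10 arrays at 0.11, -0.03, 0.44 and 0.22.

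RpL32, also called rp49, is widely used in flies as the constant gene against which other RNAs are set. It had 20 rows in the table, but at most 4 of them held a value on any array, and none did on day 10 replicates 1 and 3. At day 14 its ratios were -0.15, 0.17, -0.32 and 0.00, a fitted -0.07 ± 0.15 (n = 4), with a 95% interval of -0.41 to 0.26. Day 10 values were -0.69 on replicate 2 and -0.22 on replicate 4, both below 0, and were not tested. RpL34a was at -0.12 ± 0.14 at day 14 (n = 4) and 0.01 ± 0.17 at day 10 (n = 3). RpL28 and RpL29 completed the class with 0.09 ± 0.14 and 0.07 ± 0.14 at day 14 (n = 4 each), and with -0.19 ± 0.17 (n = 3) and 0.03 ± 0.14 (n = 4) at day 10. The 3 day 10 arrays of RpL28 read 0.05, 0.47 and -0.73, so its fitted value went against the sign of 2 of them.

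The symbols of 2 genes meet the rule, though their relatives in yeast, Rlp7 and Rlp24, help to assemble the large subunit and are not part of it. RpL7-like had 0.03, 0.34, 0.12 and 0.02 on the day 14 arrays, all above 0, and was fitted at 0.13 ± 0.13 (n = 4). It was the 1 of 37 members above 0 on every day 14 array, against 8.83% of features, but with print blocks centred its fitted value was -0.02. At day 10 RpL7-like had -0.63, -0.37, -0.23 and -0.11, all below 0, a fitted -0.34 ± 0.13 (n = 4). RpL24-like stood at 0.01 ± 0.16 at day 14 (n = 4) and 0.04 ± 0.20 at day 10 (n = 3). Without the pair, the large subunit median was -0.10 at day 14 and 0.10 at day 10.

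Small subunit genes were measured thinly, with 4 of 8 tested at day 14 and only 5 at day 10. Their day 14 median was -0.20, with 3 of 4 below 0, and the array medians of -0.02, 0.24, -0.36 and 0.05 spread to both sides. It moved to -0.07 without replicate 3 and to -0.10 without replicate 1. The day 10 median was -0.15, with 3 of 5 below 0 and array medians of -0.19, -0.10, -0.23 and 0.18. These medians rest on different genes, since RpS5b and RpS10a were tested at day 10 alone and RpS28b at day 14 alone. Over the 3 genes tested at both collections the medians were -0.14 at day 14 and 0.11 at day 10. The day 10 median also changed sign, to 0.07, without replicate 1, where 4 genes remained, and was -0.02 without replicate 2.

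RpS7 had ratios of -0.07, 0.07, -0.62 and -0.68 at day 14, a fitted -0.32 ± 0.17 (n = 4), and its low arrays were those with treated RNA in Cy3. At day 10 RpS7 had -0.52, 0.52, -0.46 and -0.13, fitted at -0.15 ± 0.18 (n = 4). RpS12, through which fly cells sense a shortage of other ribosomal proteins, had 0.04, 0.60, -0.23 and 0.32 at day 14, a fitted 0.18 ± 0.16 (n = 4). At day 10 RpS12 had -0.07, -0.22, 0.38 and 0.33, fitted at 0.11 ± 0.17 (n = 4), or at -0.04 with print blocks centred. RpS15Ab has a close relative, RpS15Aa, whose RNA its cDNA spots may also bind, which was not tested. It was at -0.14 ± 0.13 at day 14 and 0.11 ± 0.13 at day 10 (n = 4 each). RpS28b had -0.48, 0.40 and -0.48 on the 3 day 14 arrays that measured it, a fitted -0.26 ± 0.21, and 0.12 and 0.03 on 2 day 10 arrays.

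The members named RpS5b, RpS10a and RpS19b are paralogues known for expression in the germ line. As for RpS15Ab, their cDNA spots may also bind RNA of close relatives, which was not tested. RpS5b had -0.32, -0.35, -0.23 and -0.15 on the day 10 arrays, all below 0, with a fitted value of -0.26 ± 0.16 (n = 4). RpS10a had -0.71, -0.26 and -0.17 on 3 day 10 arrays, also all below 0, and was fitted at -0.33 ± 0.21. With RpL7-like they were the 3 of 42 members below 0 on every day 10 array, against 6.17% of all features. At day 14 RpS5b read 0.36 and -0.27 on 2 arrays and RpS10a 0.43 on 1, so neither was tested. RpS19b and RpS20 were tested at neither collection. RpS19b had -1.07 and 0.27 on 2 day 10 arrays, and RpS20 had 0.08 on 1 day 14 array and 0.67 on 1 day 10 array.

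**Figure D1:**
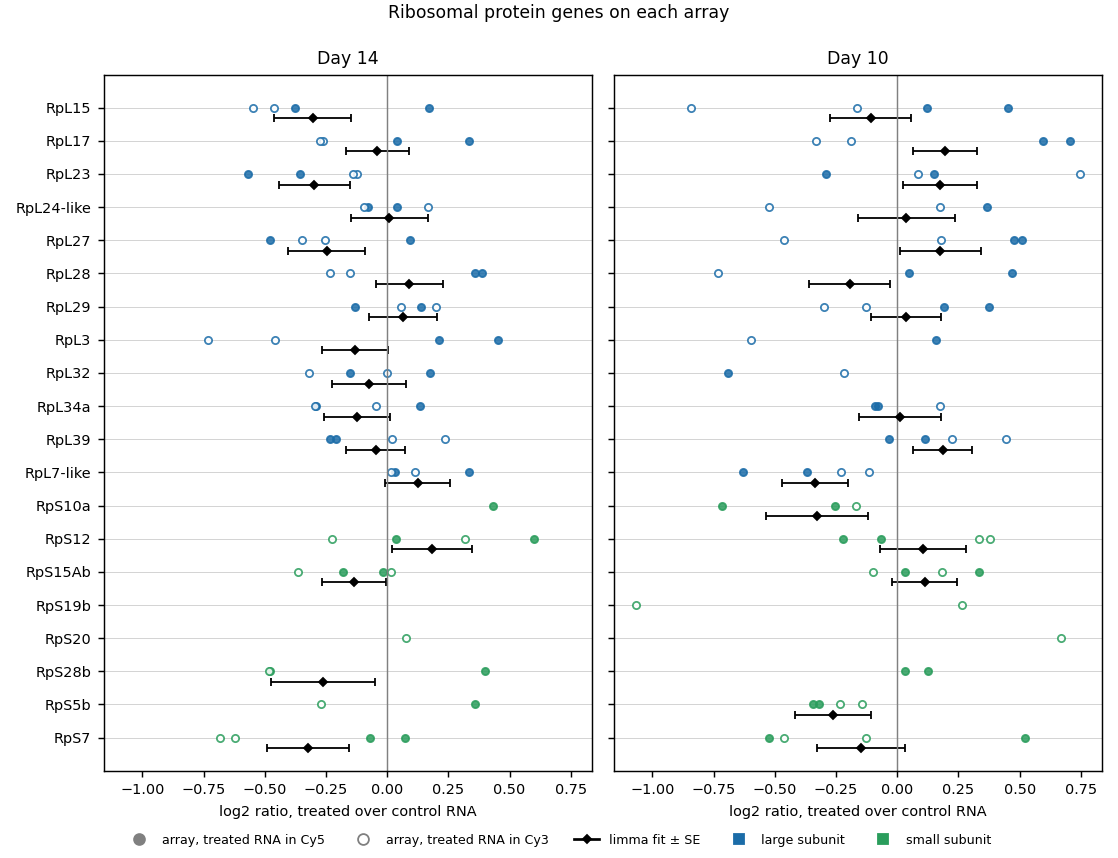
Log2 ratio of treated over control RNA (x axis) for the 20 ribosomal protein genes (rows) at day 14 (left) and day 10 (right); circles are arrays, filled where treated RNA carried Cy5 and open where it carried Cy3, and diamonds with bars are limma fits with standard errors where at least 3 arrays had a value. RpL23 lies below 0 on all 4 day 14 arrays, RpL7-like above 0 on all 4 at day 14 and below 0 on all 4 at day 10, and in RpL3 and RpL17 filled and open circles stand apart.

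Initiation factors had medians near 0 at both collections. At day 14, 18 of 26 were tested, 11 of them below 0, with a median of -0.06 and a range of -0.27 to 0.16. The class medians of -0.04, -0.01, -0.01 and -0.12 were all below 0, within 0.12 of it. At day 10, 23 were tested, 9 of them below 0, with a median of 0.11 and a range of -0.82 to 0.42, beside 0.04 over all features. The day 10 arrays gave 0.37, 0.12, -0.10 and -0.02, again above 0 with treated RNA in Cy5 and below it with treated RNA in Cy3. Leaving out any single array gave -0.10 to -0.02 at day 14 and 0.06 to 0.15 at day 10. The day 10 median was smaller under other scalings, at 0.01 with print blocks centred, 0.02 with arrays scaled to one spread and 0.03 without centring.

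The factor eIF2 carries the initiator tRNA, and eIF2B recharges it with GTP. The alpha, beta and delta subunits of eIF2B sense phosphorylated eIF2, the step at which stress lowers initiation. eIF2Bdelta had 0.15, 0.37, 0.11 and -0.44 at day 14, a fitted 0.05 ± 0.13 (n = 4). At day 10 it had 0.54, 0.52, 0.22 and 0.04, all above 0, and was fitted at 0.33 ± 0.13 (n = 4). With eIF3a and eIF3k it was among the 3 of 42 members above 0 on every day 10 array, against 6.39% of features. eIF2Balpha was at -0.06 ± 0.13 at day 14 and 0.12 ± 0.14 at day 10 (n = 4 each).

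eIF2Bbeta had -0.29, -0.30, 0.17 and 0.05 at day 14 and -0.28, -0.44, 0.18 and 0.18 at day 10. Its arrays split by dye in the same way at both collections, and the fitted values after the dye term were -0.09 ± 0.12 each (n = 4). eIF2beta, a subunit of eIF2 itself, was at -0.08 ± 0.18 at day 14 and -0.13 ± 0.20 at day 10 (n = 3 each). eIF2Bgamma, of the catalytic part of eIF2B, had no value at day 14, and its day 10 arrays at 0.58, -0.53 and 0.34 gave 0.18 ± 0.29.

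The eIF3 complex is the scaffold on which the small subunit gathers the other initiation factors, and 10 members carry its name. At day 14, 7 were tested, 5 of them below 0, with a median of -0.17. At day 10, 8 were tested, 1 of them below 0 (2 without the dye term), with a median of 0.14. With print blocks centred, however, 5 of the 8 lay below 0 and the median was -0.01. The eIF3 medians on the arrays were -0.18, 0.03, -0.08 and -0.21 at day 14 and 0.45, 0.13, -0.13 and -0.18 at day 10. The day 10 arrays split by dye, and at day 14 replicate 2 alone stood above 0. eIF3g1 had -0.32, 0.06, -0.48 and -0.36 at day 14, a fitted -0.27 ± 0.15 (n = 4), with replicate 2 alone above 0. At day 10 eIF3g1 had 0.86, 0.51, -0.17 and -0.34, fitted at 0.22 ± 0.15 (n = 4). These day 10 arrays split by dye.

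eIF3k had -0.36, 0.04 and -0.21 on 3 day 14 arrays, a fitted -0.21 ± 0.15. Day 10 arrays read 0.31, 0.11, 0.45 and 0.20, all above 0, fitted at 0.27 ± 0.13 (n = 4). eIF3b had 0.14, -0.22, -0.22 and -0.65 at day 14, a fitted -0.24 ± 0.14 (n = 4). At day 10 its 3 arrays read 0.49, -0.10 and -0.41, and the fitted value was 0.08 ± 0.18, against the sign of 2 of them. eIF3i was at -0.17 ± 0.18 at day 14 and 0.14 ± 0.20 at day 10 (n = 4 each). Its arrays read -0.38, 0.51, -0.60 and -0.20 at day 14, where the fitted value turned to 0.10 without replicate 1, and at day 10 they ran from -0.59 to 0.94 and split by dye. The others tested at both collections were eIF3l at -0.12 ± 0.13 and 0.11 ± 0.13, eIF3a at 0.09 ± 0.14 and 0.21 ± 0.17, and eIF3f1 at 0.11 ± 0.17 and 0.13 ± 0.15, day 14 before day 10, on 3 or 4 arrays each.

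The remaining eIF3 members had few values. eIF3d2 read 1.26 on 1 day 14 array, and its 3 day 10 arrays at 0.48, -0.87 and -0.43 gave -0.31 ± 0.33. eIF3c read 0.07 on 1 day 14 array and 0.00 and 0.02 on 2 day 10 arrays. eIF3f2, a paralogue of eIF3f1, had a single value, -0.57 on a day 10 array, so that pair could not be compared.

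Among factors that bind the cap and unwind the messenger RNA, fitted values ran from -0.07 to 0.06 at day 14. The helicase eIF4A was at -0.05 ± 0.16 at day 14 and -0.04 ± 0.17 at day 10 (n = 4 each), but its arrays spread from -0.11 to 0.01 at day 14 and from -0.81 to 0.53 at day 10. The scaffold eIF4G1 was at -0.07 ± 0.12 at day 14 and -0.02 ± 0.12 at day 10 (n = 4 each), with its 4 day 10 arrays within 0.11 of 0. Its paralogue eIF4G2, needed for sperm formation, had 0.82, 0.68, -0.97 and -0.68 at day 10, a complete split by dye with a fitted -0.04 ± 0.15 (n = 4). On the single day 14 array that measured it, eIF4G2 read -0.03.

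The cap-binding paralogues eIF4E3 and eIF4E5 were at 0.00 ± 0.19 (n = 3) and 0.06 ± 0.23 (n = 4) at day 14, and at -0.08 ± 0.17 and -0.29 ± 0.25 (n = 4 each) at day 10. Of this pair eIF4E5 spread more at day 10, with arrays at -0.49, 1.00, -1.03 and -0.63. The helicase cofactor eIF4B was at -0.03 ± 0.16 at day 14 (n = 4) and read -0.02 and 0.21 on 2 day 10 arrays. eIF4H2 read 0.16 and -0.27 on 2 day 14 arrays, and its day 10 arrays at 1.29, 0.77, -0.41 and -0.76 gave 0.23 ± 0.20 (n = 4), another split by dye.

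eIF2A and eIF2D can bring in initiator tRNA without eIF2, as work on mammalian cells has shown. eIF2A read -0.17 and 0.58 on 2 day 14 arrays. At day 10 it had -2.02, -0.41, 0.12 and -0.98, a fitted -0.82 ± 0.31 (n = 4), the lowest of all members, with 3 of 4 arrays below 0 and an SD of 0.92 between them. eIF2D had no value at day 14, and at day 10 its 3 arrays stood at -0.81, 1.56 and 1.73, fitted at 0.42 ± 0.19. That value, the highest of the members, rests on a dye term of -1.22, and the SD between its arrays was 1.42, far above the standard error.

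eIF5B joins the subunits, and eIF6 keeps a free large subunit from joining too early. eIF5B had -0.05, -0.15, 0.03 and 0.20 at day 14, fitted at 0.01 ± 0.12, and -0.04, 0.12, 0.41 and 0.43 at day 10, fitted at 0.23 ± 0.12 (n = 4 each). eIF6 was at 0.16 ± 0.15 at day 14 (n = 3) and 0.11 ± 0.13 at day 10 (n = 4). Its ratios were split by dye throughout, 0.62, -0.40 and -0.26 at day 14 and 0.79, 0.57, -0.30 and -0.61 at day 10.

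Elongation factors had medians of -0.08 at day 14 (3 tested) and -0.17 at day 10 (4 tested). The first was -0.17 without day 14 replicate 4 and -0.05 without replicate 3, and the second ran from -0.25 without day 10 replicate 2 to -0.07 without replicate 1. eEF1alpha2, which delivers aminoacyl-tRNA, had 0.27, 0.19, -0.57 and -0.23 at day 14, a fitted -0.08 ± 0.14, and 0.01, 0.53, -0.78 and -0.37 at day 10, a fitted -0.15 ± 0.15 (n = 4 each). Both sets split by dye. eEF1delta, its nucleotide exchange factor, had -0.23, -0.16, -0.01 and 0.08 at day 14, fitted at -0.08 ± 0.13, and -0.52, -0.19, 0.23 and -0.30 at day 10, fitted at -0.20 ± 0.14 (n = 4 each). eEF5, known in other species as eIF5A, was at -0.08 ± 0.19 at day 14 and 0.16 ± 0.20 at day 10 (n = 4 each). eEFSec, which inserts selenocysteine, read 0.19 and -0.02 on 2 day 14 arrays and was at -0.20 ± 0.21 at day 10 (n = 3).

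**Figure D2:**
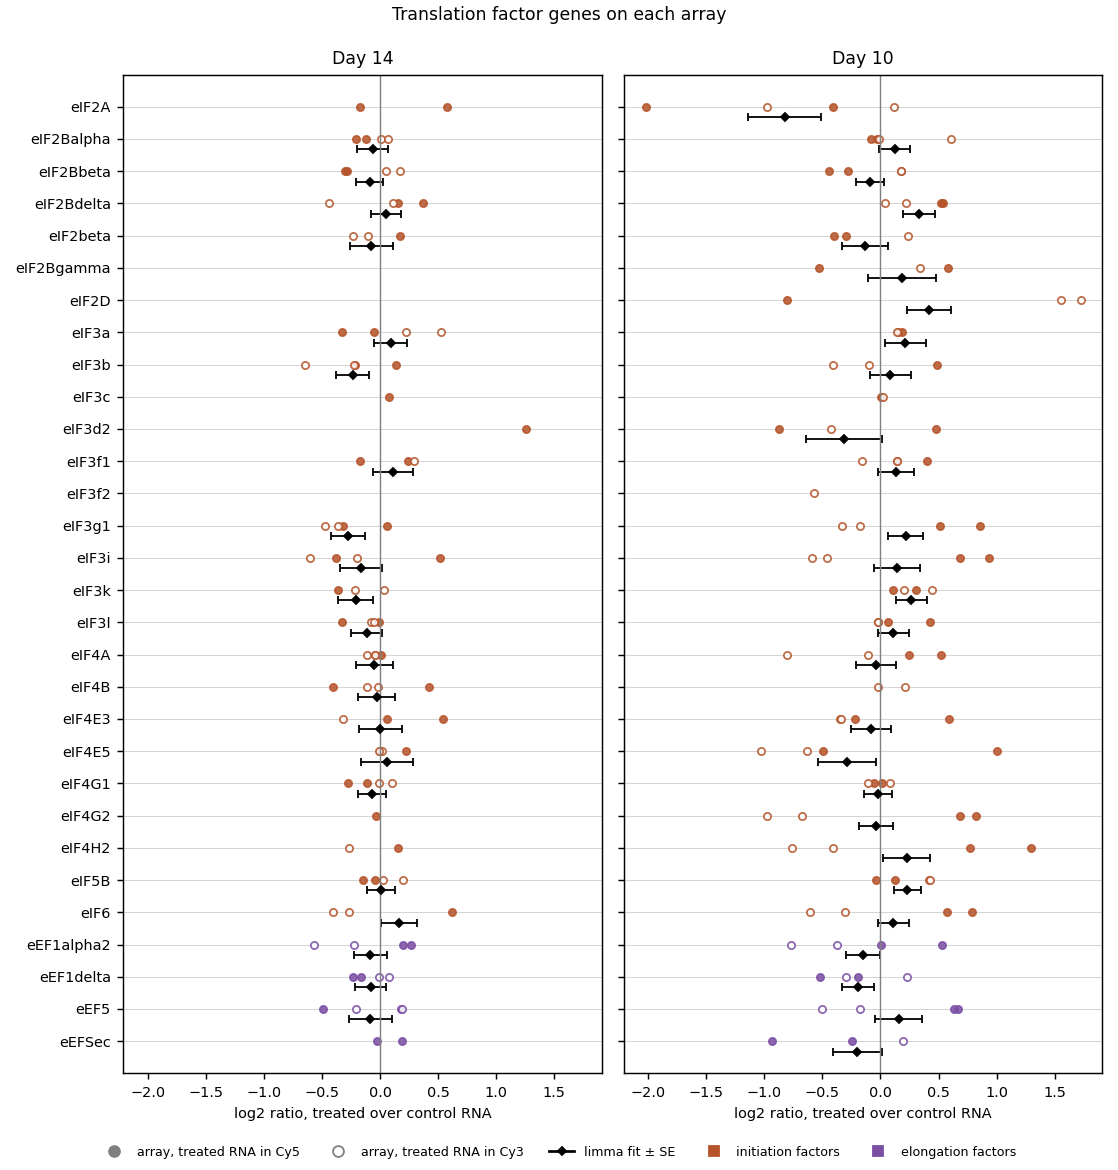
Log2 ratio of treated over control RNA (x axis) for the 26 initiation and 4 elongation factor genes (rows) at day 14 (left) and day 10 (right); circles are arrays, filled where treated RNA carried Cy5 and open where it carried Cy3, and diamonds with bars are limma fits with standard errors. Arrays spread more widely at day 10, where eIF2A runs from -2.02 to 0.12 and eIF2D from -0.81 to 1.73, and filled and open circles stand apart in eIF4G2, eIF4H2 and eIF6.

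Dye orientation moved with many of these values. The dye term had an unadjusted p under 0.05 for 12 of 37 members in the day 14 fit, against 23.3% of all features, for 11 of 42 in the day 10 fit, against 23.4%, and for 10 of 33 in the fit of the difference, against 24.9%. The sign of the dye term was positive for 23 of the 37, against 3741 of 7529 features, and for 24 of the 42, against 5764 of 11509. A positive sign means that RNA labelled with Cy5 read higher whatever flies it came from. With all 4 arrays of a group measured, 2 in each orientation, such a split cancels and the fitted value is the array mean. With 3 arrays the fitted value is shifted by the dye term, fitted once per gene over both collections. eIF6 at day 14 was thus fitted at 0.16, with an array mean of -0.02. The dye term rests on few arrays, and it cannot follow a split that differs between the collections. Duplicate rows of a member differed on an array by a median of 0.18 (326 readings).

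**Figure D3:**
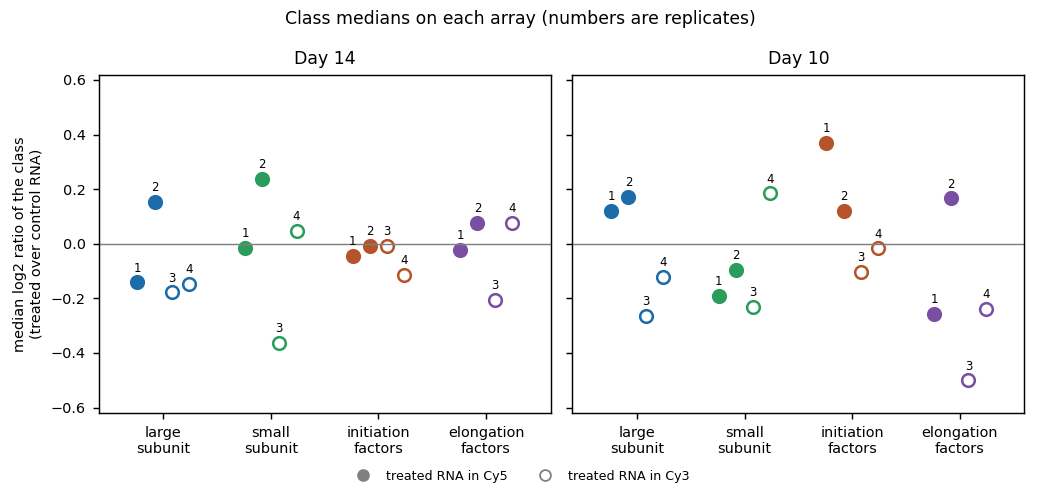
Median log2 ratio of treated over control RNA (y axis) of the 4 gene classes (x axis) on each array at day 14 (left) and day 10 (right), over the members with a value there; filled circles had treated RNA in Cy5, open circles in Cy3, and numbers are replicates. For the large subunit and the initiation factors the day 10 arrays separate by dye, and at day 14 replicate 2 alone has a large subunit median above 0.

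The difference between the collections, the day 14 ratio minus the day 10 ratio, was tested for 33 members, and limma called 0 (adjusted p = 0.773 to 0.999), against 0% of 6419 features. At an unadjusted p under 0.05 there were 4 members, 12.1% of those tested against 6.26% of all features. RpL7-like was higher at 0.46 ± 0.19, against 2.46% of features in that direction. The other 3 were lower, against 3.8% of features, with RpL23 at -0.47 ± 0.21, eIF3g1 at -0.49 ± 0.21 and eIF3k at -0.47 ± 0.20. Of the 33, 23 lay below 0, against 54.6% of features, with a median of -0.13 beside -0.03. The large subunit had a median difference of -0.16 (7 of 10 below 0), the small subunit -0.18 (2 of 3), initiation factors -0.12 (13 of 17) and elongation factors 0.07 (1 of 3).

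Tested eIF3 subunits were all lower at day 14 than at day 10 in fitted value, 7 of 7, against 54.6% of features. Their median difference was -0.31, from eIF3g1 at -0.49 to eIF3f1 at -0.02. None of them passed singly. The eIF3 group is not 1 of the 4 classes of the rule and, like the lists, was set with earlier results of these data known. Its subunits were read on the same arrays, so the 7 are not independent values. The count of 7 of 7 was thus not tested against the share of features, and no conclusion is drawn from it. Among the other initiation factors, eIF2 and eIF2B had a median difference of -0.09 (3 of 4 below 0) and eIF4 0.04 (2 of 4). For eIF5B and eIF6 it was -0.09 (1 of 2). Each print block, as set by row order, was also centred on its own median, a setting meant to take out the pattern over the slide. The eIF3 median difference was then -0.08, and 5 of 7 lay below 0, against 51.5% of features. Most of its size went with that setting. RpL7-like then stood at 0.24, RpL23 at -0.27, eIF3g1 at -0.34 and eIF3k at -0.23. Without any single array, the eIF3 median difference was -0.37 to -0.24 over 5 or 6 subunits, of which 1 lay above 0 without day 10 replicate 2 and 1 without day 14 replicate 2. With arrays scaled to one spread, 6 of 7 lay below 0.

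**Figure D4:**
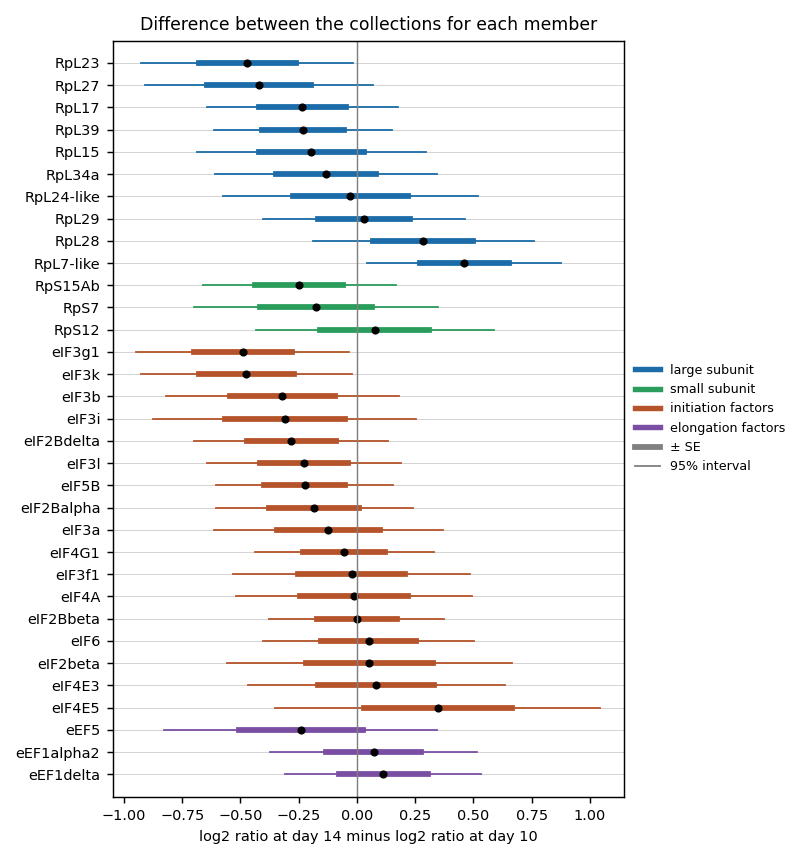
Difference of the log2 ratio at day 14 minus that at day 10 (x axis) for the 33 members tested in it (rows, sorted within each class); points are limma estimates, thick bars standard errors and thin bars 95% intervals. The thin bars of 29 members cross 0, and those of RpL23, RpL7-like, eIF3g1 and eIF3k do not, before any adjustment for 6419 features.

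Other genes around protein synthesis gave no call at either collection (0 passed in each direction, over all features). Of ribosome biogenesis genes, 3 of 9 lay below 0 at day 14 with a median of 0.06, and 5 of 21 at day 10 with a median of 0.15. The nucleolar gene Surf6 was at -0.92 ± 0.25 and Nopp140 at 0.19 ± 0.13 at day 14, and Non3 at 0.85 ± 0.20 and Noc1 at 0.39 ± 0.14 at day 10. Of aminoacyl-tRNA synthetases, which charge tRNAs, and the AIMP proteins that bind them in a complex, 3 of 3 lay below 0 at day 14, AIMP1 at -0.02 ± 0.13 among them (AlaRS at -0.17 ± 0.16, SerRS at -0.17 ± 0.19). At day 10, 3 of 7 lay below 0, AIMP2 at -0.04 ± 0.17 among them, with IleRS at 0.76 ± 0.26 and alpha-PheRS at -0.50 ± 0.20.

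TOR and insulin signalling had 2 of 5 genes below 0 at day 14 (Tsc1 at 0.17 ± 0.24, Sesn at 0.05 ± 0.13) and 2 of 7 at day 10 (Sesn at 0.27 ± 0.14, REPTOR at 0.25 ± 0.15). Of ribosomal and translation-associated proteins outside the symbol rule, such as RpLP0 and Rack1, 7 of 8 lay below 0 at day 14 with a median of -0.10, and 4 of 11 at day 10 with a median of 0.05. Nacalpha, a chaperone at the ribosome's exit, was at -0.24 ± 0.12 at day 14 and 0.21 ± 0.12 at day 10. Upf1, of nonsense-mediated decay, was at 0.27 ± 0.18 at day 14, and pelo, which rescues stalled ribosomes, at 0.29 ± 0.13 at day 10. In the integrated stress response, crc, the fly relative of ATF4, was at -0.50 ± 0.14 at day 14 and 0.07 ± 0.14 at day 10, Irbp18 at -0.07 ± 0.13 at day 14 and Gcn2 at 0.14 ± 0.27 at day 10.

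Marker genes of the cell types a head can hold gave no call either. Fat body markers had a median of -0.25 at day 14 (6 tested) and 0.09 at day 10 (8 tested), with members on both sides of 0. The fat body genes sxe2 and Cyp4d21 were at -0.67 ± 0.13 and -0.77 ± 0.18 at day 14 (adjusted p = 0.593 and 0.708 with limma) and at -0.33 ± 0.16 and -0.54 ± 0.20 at day 10. Fbp2, Yp2 and Lsp2 were at 0.45 ± 0.20, 0.35 ± 0.23 and 0.40 ± 0.37 at day 10. These were picked after their values were seen. Photoreceptor markers had medians of -0.13 (5) and 0.08 (7). Glial markers stood at -0.37 (2) and -0.11 (8), muscle markers at -0.08 (5) and -0.12 (6), neuronal markers at -0.04 (2) and 0.24 (3), and haemocyte markers at -0.07 (1) and 0.24 (5), day 14 before day 10. Of 3 testis or male gland markers measured, 0 were tested at day 14 and 2 at day 10, with a median of -0.15. Their part in the values above was not tested.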

How the data were processed

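The deposited values are log2 ratios, 1 per spot and array, judged from the values: they are signed, near 0, and 2 stand at a cap of 16.61 and were left out. Per the series text, slides were quantified by the authors with GenePix Pro 6.0 and ratio-normalised with Acuity 4.0; spots below 100 intensity units and near background were ignored in normalisation, and spots with 3 percent or more saturated pixels, an R2 under 0.6 or a signal-to-noise ratio under 3 were left out. Blank cells were taken as such spots, and which filter removed a spot is not recorded, so both dim and bright members can be missing. Depth is not defined for arrays; their number limits the precision. The genome build is not given in the sources used here, so no coordinates are printed.

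Arrays were centred on their medians and swapped arrays turned. Platform gene IDs were updated to RefSeq (assembly Release 6 plus ISO1 MT): of 27648 rows, 15116 named 1 gene, 102 several and 12430 none, and 14894 matched. The 130 rows of the 50 members, like all rows of a gene, were averaged per array. limma 3.58.1 in R 4.3.3 fitted a mean for each group and a dye term to all 8 arrays, with moderated p values adjusted by the Benjamini-Hochberg method over every feature tested (two-sided, threshold 0.05). The fit was also run on simulated arrays with equal noise at both collections. That run does not cover the unequal spread between collections seen here. Columns of other samples numbered 0.

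Members and lists were chosen with earlier results of these data known, so classes are described by counts and medians without a test. The rule named the members with the smallest p in each class, the lowest and highest, and paralogue pairs, and for each pathway list, not the marker lists, the 2 genes with the smallest p; in the end every member is named. Alternatives were no dye term, groups fitted alone, no centring, print-block centring, scaled arrays, medians of rows, 2 or 4 arrays as the minimum, swapped arrays as deposited, a replicate block and each array left out.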

Additional observations from a re-analysis of the deposited data

Results flagged for a closer look

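Of 70 sets of 4 arrays examined (members and class medians at each collection), 4 held an array far from the other 3. The cut-off used sets apart about 1 in 20 sets of independent normal values. The sets here overlap and many split by dye, so the share to be expected was not determined. The large subunit median was 0.15 on day 14 replicate 2, against -0.18 to -0.14 on the others. eIF4E5 read 0.23 on day 14 replicate 2, against -0.01 to 0.02. eIF2Balpha read 0.61 on day 10 replicate 3, against -0.08 to -0.01, and eIF4E3 read 0.59 on day 10 replicate 2, against -0.35 to -0.22.

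RpL7-like lay above 0 on every day 14 array and below 0 on every day 10 array. The difference of 0.46 ± 0.19 was tested in limma and did not pass over all features (adjusted p = 0.773, and 0.544 to 0.9998 under the alternatives). With print blocks centred it was 0.24.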

How the results depend on the processing

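No member was called under any alternative, though with swapped arrays as deposited the lowest adjusted p of a member in limma was 0.0508. In that setting 3293 of 11509 day 10 features had an unadjusted p under 0.05. Day 14 gave 70 calls fitted alone and 39 with arrays scaled to one spread, and day 10 gave 304 with swapped arrays as deposited. In each case 0 of them were members. At day 14, 887 features had an unadjusted limma p under 0.05 fitted alone and 854 with arrays scaled, against 300 in the main fit. The lowest adjusted p of a member was 0.217 with groups fitted alone and 0.247 with arrays scaled. The cause of these shifts was not tested. All other counts of calls were 0, also in the difference and without any single array. The replicate block gave 0 calls in the difference (351 at an unadjusted p under 0.05, against 402 without it). It was run for the difference alone, where 0 of 33 member values changed sign. Same-numbered arrays correlated at 0.06, 0.42, 0.39 and 0.10, not all with their own number best, and at 0.07 each after the dye was taken out. Replicates 1 and 2 then share a value by construction, as do replicates 3 and 4, so these values are not separate checks. The numbers were not read as pairs. Fitting each group alone was not run for the difference, which needs both groups. Of 146 class medians under the alternatives, 7 moved by more than 1 SD of the array medians. The 146 include arrays left out of the other collection, which moved a median little or not at all. With swapped arrays as deposited, medians were 0.18 (small subunit) and 0.035 (initiation factors) at day 14, and 0.25 (large subunit) and 0.13 (elongation factors) at day 10. Without centring, initiation factors stood at -0.14 at day 14. The small subunit median at day 10 was 0.11 over genes tested at both collections (chosen after seeing the data) and -0.15 to 0.070 with an array left out, which also removes genes. Of 1793 member values under the alternatives, 149 changed sign, 52 of them with swapped arrays as deposited and 22 with print blocks centred. The 1793 also include arrays left out of the other collection.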

Other observations

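The mitochondrial ribosome is a separate machine built of proteins from other nuclear genes. At day 14, 10 of 21 tested genes lay below 0, with a median of 0.02, and mRpL37 was at -0.40 ± 0.18 and mRpL33 at -0.27 ± 0.18. At day 10, 18 of 38 lay below 0, with a median of 0.02, and mRpS11 was at -0.29 ± 0.14 and mRpS29 at 0.26 ± 0.13. Proteasome genes, which act at the other end of a protein's life, had 8 of 17 below 0 at day 14 with a median of 0.01 (Rpt3 at -0.27 ± 0.15, Prosbeta7 at -0.23 ± 0.15). At day 10, 9 of 24 lay below 0, with a median of 0.05 (Rpn5 at 0.47 ± 0.15, Rpn2 at 0.56 ± 0.24). In limma, 0 genes of these lists passed at either collection.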
